A study of Mus musculus with 8 samples.

Results

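Musashi-1 and Musashi-2, encoded by Msi1 and Msi2, are RNA-binding proteins that carry a pair of RNA recognition motifs and regulate the translation and stability of their target messages. The mRNA of Numb, an inhibitor of Notch signalling, is a well-known target of the family. Both genes are expressed in progenitor cells of the intestinal crypt, and both have been studied as drivers of growth in colorectal tumours. H3K27ac, the acetylation of lysine 27 of histone H3, is found at active promoters and enhancers, so its level along a gene is a readout of the activity of its regulatory DNA and not of its RNA.

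The acetylation of the Musashi loci was followed in mouse colon cancer organoids in which Gata6 was knocked out, and in control organoids. GATA6 is a zinc-finger transcription factor active in the epithelium of the gut. The mark was mapped by CUT&RUN: a nuclease tethered to an antibody against the mark releases the DNA around it, which is then sequenced. The Gata6KO group held 3 libraries of genotype Gata6KO_AKP and the Control group 3 libraries of genotype AKP. AKP is the background that both groups share, and the labels do not list its alleles. They give C57Bl6 as the strain of recipient mice, and they do not say how Gata6 was deleted, how many clones were used or whether replicates came from separate cultures. The spread between libraries may therefore be technical. The H3K4me3 and IgG libraries of the series were not analysed here, and no background was taken off the levels.

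The members were the rows of the authors' peak table that overlapped a window around each gene in the mouse genome build mm9. The Msi2 window ran over chr11:88100000-88600000, and the Msi1 window over chr5:115830000-115950000. Of 22731 peaks in the table, 43 overlapped the Msi2 window and 0 overlapped the Msi1 window. Every level reported for the Musashi loci is thus a level in the Msi2 window, and which of its peaks lie within the gene was not determined. All 43 passed the filter on low counts. The loci were picked for a second look with the difference between Gata6KO and Control libraries already known. For this reason that difference is given as a description, with counts of calls from the fit across all peaks and no p-value for single peaks.

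No mm9 annotation was at hand, so peaks were not assigned to a promoter, an exon or an intron. They are numbered 1 to 43 from low to high coordinates. RefSeq places Msi2 on the minus strand in the build GRCm38.p6, so that transcription starts at the high-coordinate end of the gene. In that build the next protein-coding genes are Akap1, beyond the start of Msi2, and Ccdc182, beyond its end. The defining markers of colon epithelium and the level at Gata6 itself were not analysed here, since no mm9 positions of these genes were at hand. The same holds for Numb and the other targets of the Musashi proteins.

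RefSeq lists 3 overlapping start windows for Msi2, each from 250 bases before to 50 bases after an annotated start, and none was matched for Msi1. The 250 bases before the start that lies farthest upstream among the 3 are given here, 5′ to 3′, because GATA factors read a short sequence that can be looked for in it. They lie at chr11:88718278-88718527 on the minus strand of GRCm38.p6, a build whose positions cannot be compared with those of the peaks.
Msi2 promoter: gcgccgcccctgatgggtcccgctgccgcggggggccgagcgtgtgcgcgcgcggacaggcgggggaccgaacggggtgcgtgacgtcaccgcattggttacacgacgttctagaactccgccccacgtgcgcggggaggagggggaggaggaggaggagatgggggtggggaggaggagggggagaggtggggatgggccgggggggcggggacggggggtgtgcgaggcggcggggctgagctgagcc
The letters AGATAA and TGATAA were searched on both strands, as were AGATAG and TGATAG. None was found in the 3 Msi2 windows of 300 bases, so no letter is in capitals, while 29.8% of the 32851 promoter windows in the RefSeq table held at least 1 match. The window around the start shown was rich in G and C, at 76.3%, against a median of 52.7% over all promoter windows. The absence of these letters concerns this window alone.

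The Msi2 window was a dense stretch of the peak set that both groups share. The 43 peaks covered 193 kb, or 38.5% of the window, and the median gap between neighbours was 3.25 kb, against 7.69 kb over chromosome 11. Of 2819 non-overlapping 500-kb bins of the genome that held a peak, 3 held at least 43, and the median bin held 5. These bins followed a fixed grid that was not aligned with the window. The peaks were wider than usual, with a median width of 3695 bp against 2690 bp for all peaks, and 13 of the 43 were among the widest 20%. Their median level in Control libraries, 27.2 CPM (read counts scaled to the library's total of reads in peaks), was close to the 27.9 CPM of all peaks. Per kilobase they were less dense than most, with a median of 9.49 CPM per kb in Control libraries against 10.7 CPM per kb, and 11 of the 43 lay above the median of all peaks. The Msi2 window was thus marked by many neighbouring peaks of ordinary median level. Of the 43, 13 were among the highest 20% of all peaks in Control level, and 4 in Control level per kb. An interval of 55.9 kb without a peak, from 88404014 to 88459953, divided the first 30 peaks from the last 13.

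The acetylation of the Msi2 window as a whole was higher in Gata6KO organoids. The levels of its 43 peaks summed to 2567, 2670 and 2625 CPM in Gata6KO replicates 1 to 3, against 2208, 2178 and 2124 CPM in Control replicates 1 to 3. The lowest Gata6KO library lay above the highest Control library, and the libraries of a group lay close together. The means were 2620 ± 51.7 CPM in Gata6KO and 2170.0 ± 42.7 CPM in Control libraries (SD, n = 3 each), a difference of 20.8% or 0.27 on the log2 scale. The rest of chromosome 11 summed to 81098 ± 39.6 CPM in Gata6KO and 81011 ± 1042 CPM in Control libraries, a difference of 0.107%. Among the 923 genomic bins of 500 kb with at least 10 peaks, 62 had a log2 ratio of summed levels at least as high as that of the Msi2 window. Gains of this size over 500 kb were thus found at other places as well, although bins that hold peaks of the window were not left out.

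The rise was spread over many peaks, but unevenly. The fitted log2 fold change, Gata6KO over Control, was above 0 at 39 of the 43 peaks and below 0 at 4, while 48.9% of all peaks lay above 0. Its median over the 43 peaks was 0.31, against -0.01 over all 22731 peaks, and single peaks ranged from -0.39 to 0.81. In the fit across all peaks, 16 of the 43 were called higher and 0 lower at an adjusted p under 0.05, and the remaining 27 were not called (quasi-likelihood test of edgeR, p-values adjusted by Benjamini-Hochberg). Over all peaks 11.6% were called higher and 10.2% lower, and over chromosome 11 alone 12.7% and 8.82%. The 27 peaks of the window that were not called summed to 1351 ± 27.2 CPM in Gata6KO and 1256 ± 29.5 CPM in Control libraries (SD). Their difference was 7.59%, against 20.8% for all 43 peaks, and 23 of the 27 had a fold change above 0. Peaks were called on this same contrast, so a smaller difference among the uncalled ones follows from the selection. No peak of the window was lower at an unadjusted p under 0.05 by edgeR or by DESeq2, and DESeq2 called 0 lower. All 3 Gata6KO libraries lay above all 3 Control libraries at 18 of the 43 peaks and below them at 0, while over all peaks the Gata6KO libraries lay above at 17.5% and below at 16.2%. The comparison rests on the same contrast that drew attention to the locus, and nothing further is read from these counts.

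Leaving out single libraries changed the number of peaks called higher, to 8 without Control replicate 3 and to 10 without Gata6KO replicate 2. The 6 peaks called under each of the 16 alternatives fitted peak by peak at the same threshold were peaks 22, 31, 38, 39, 40 and 41.

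**Figure D1:**
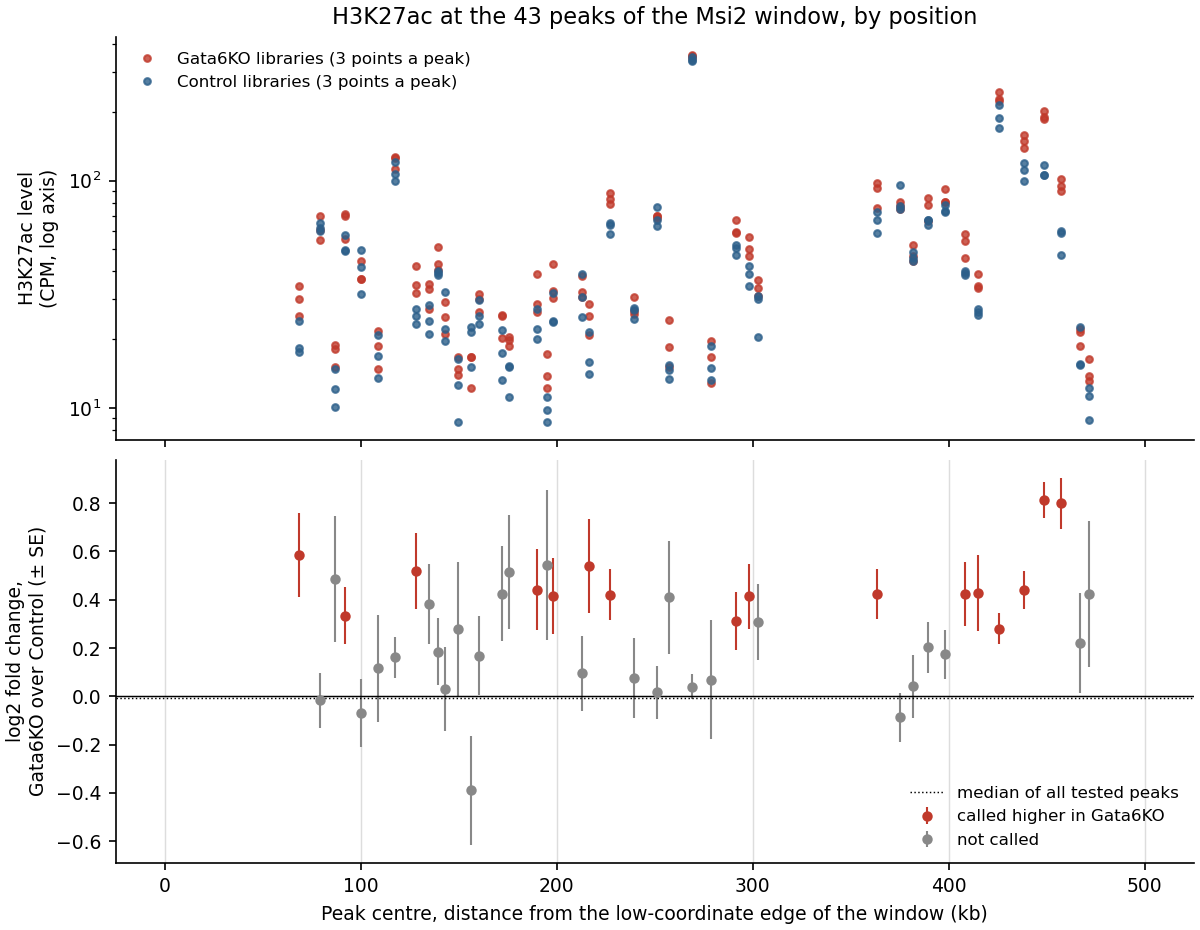
Upper panel: level of each of the 43 Msi2 peaks (CPM, log axis) in each of the 3 Gata6KO and 3 Control libraries, against the distance of the peak centre from the low-coordinate edge of the window (kb). Lower panel: log2 fold change ± SE of each peak, with the 16 peaks called higher in red, and the 2 highest values, 0.81 and 0.80, near the high-coordinate end.

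The gain was largest at the high-coordinate end of the window. The window was divided into 5 bins of 100 kb by peak centre. In the bin from 400 to 500 kb, 8 peaks summed to 773, 823 and 790 CPM in Gata6KO replicates 1 to 3, against 578, 547 and 560 CPM in Control replicates 1 to 3. The Gata6KO libraries lay well above the Control libraries, with means of 795 ± 25.6 CPM and 561 ± 15.7 CPM (SD, n = 3 each), a ratio of 1.42. This bin held 30.3% of the summed level of the window in Gata6KO and 25.9% in Control libraries, and 6 of its 8 peaks were called higher. Its 8 peaks all had a fold change above 0, with a median of 0.43 on the log2 scale.

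The other bins differed less. The first bin, from the low-coordinate edge to 100 kb, held 4 peaks that summed to 175 ± 11.1 CPM in Gata6KO and 147 ± 2.65 CPM in Control libraries, and 2 of them were called higher. The bin from 100 to 200 kb held 15 peaks with 502 ± 29.9 CPM in Gata6KO and 431 ± 20.8 CPM in Control libraries, of which 3 were called. In the bin from 200 to 300 kb, 10 peaks held 741 ± 19.6 CPM in Gata6KO and 667 ± 9.80 CPM in Control libraries, and 4 were called. The bin from 300 to 400 kb held 6 peaks with 408 ± 23.8 CPM in Gata6KO and 363 ± 10.6 CPM in Control libraries (SD, n = 3 each throughout), with 1 call. Ratios in these 4 bins were 1.19, 1.16, 1.11 and 1.12, and in each of them the 3 Gata6KO sums lay above the 3 Control sums.

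**Figure D2:**
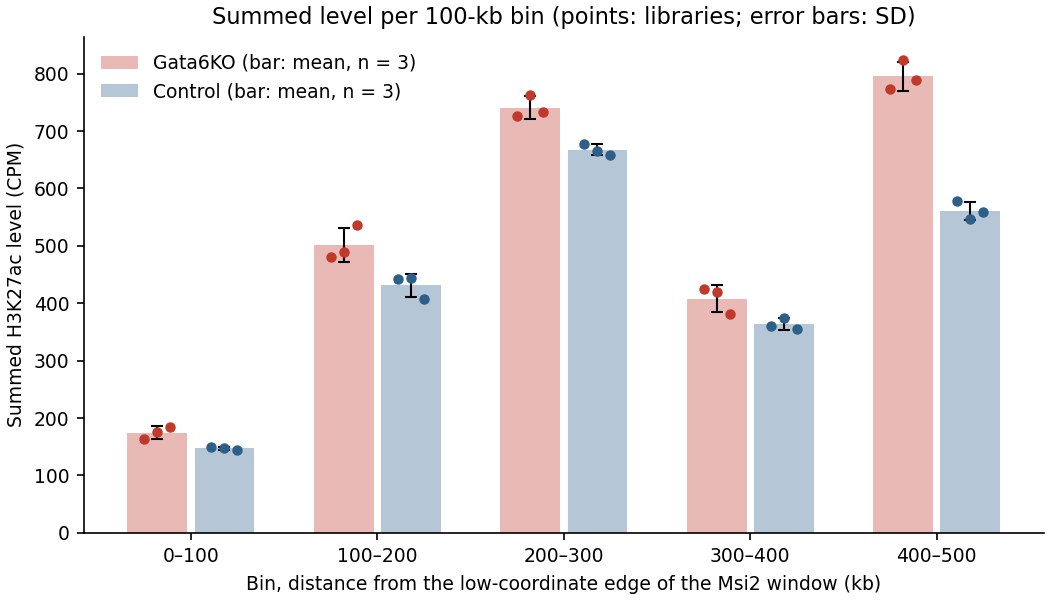
Summed H3K27ac level (CPM) of the Msi2 peaks in 5 bins of 100 kb, by distance from the low-coordinate edge of the window, in Gata6KO (left) and Control (right) libraries. Bars are means, points are the 3 libraries and error bars are SD. The groups lie farthest apart in the last bin, at 795 against 561 CPM.

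The difference in the last bin came from 6 adjacent peaks, 36 to 41, which lay from 88506278 to 88559734 and were all called higher. Together they held 760.1 ± 24.1 CPM in Gata6KO and 533 ± 18.8 CPM in Control libraries (SD, n = 3 each), a ratio of 1.43. No other stretch of the window had more than 2 adjacent calls. The run was found after the calls had been seen, and how often such runs occur over all peaks was not counted.

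Peak 40, from 88543301 to 88554085, changed most. It held 202, 190.1 and 188 CPM in Gata6KO replicates 1 to 3, against 117, 106 and 106 CPM in Control replicates 1 to 3. The libraries of each group were tightly grouped and far from those of the other. The fitted ratio was 1.76, a log2 fold change of 0.81 ± 0.08 (SE), and the counts behind it were 1162, 1048 and 1170 reads in Gata6KO and 674, 546 and 742 reads in Control libraries.

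Peak 41, from 88554359 to 88559734, began 0.274 kb beyond peak 40. It held 90.2, 95.05 and 102 CPM in Gata6KO replicates 1 to 3, against 59.8, 58.8 and 47.0 CPM in Control replicates 1 to 3, a ratio of 1.74 and a log2 fold change of 0.80 ± 0.11 (SE). The groups did not overlap, and Control replicate 3 was the lowest library. Ranked by log2 fold change among all 22731 peaks, peak 40 lay at percentile 96.0 and peak 41 at percentile 95.8, so neither was an extreme of that ranking. The ranking takes in peaks of every level, and the place of peaks 40 and 41 among peaks of like level was not determined.

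Peak 39, from 88534751 to 88542146, lay on the other side of peak 40. It held 139, 160 and 150 CPM in Gata6KO replicates 1 to 3, against 120, 111 and 99.96 CPM in Control replicates 1 to 3, a log2 fold change of 0.44 ± 0.08 (SE). The Gata6KO libraries were all higher than the Control libraries, although Gata6KO replicate 1 and Control replicate 1 were less far apart than the means.

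Peak 38, from 88517915 to 88533398, was the widest of the window at 15484 bp. It held 229, 246 and 225 CPM in Gata6KO replicates 1 to 3, against 189, 171 and 215 CPM in Control replicates 1 to 3, and its log2 fold change, 0.28 ± 0.06 (SE), was the smallest among the 16 called peaks. Control replicate 3 came close to the lowest Gata6KO library. Peaks 36 and 37, lower in level, held 52.7 ± 6.40 and 35.7 ± 2.77 CPM in Gata6KO and 39.2 ± 0.833 and 26.5 ± 0.752 CPM in Control libraries, with the same log2 fold change of 0.43 for each.

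The level was lower beyond peak 41 in both groups. Peaks 42 and 43, the last of the window, held 20.8 ± 1.86 and 14.4 ± 1.73 CPM in Gata6KO and 17.9 ± 4.06 and 10.8 ± 1.71 CPM in Control libraries. Neither was called, and their log2 fold changes of 0.22 and 0.42 had standard errors of 0.21 and 0.30. With trended offsets the value of peak 43 was 0.06.

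**Figure D3:**
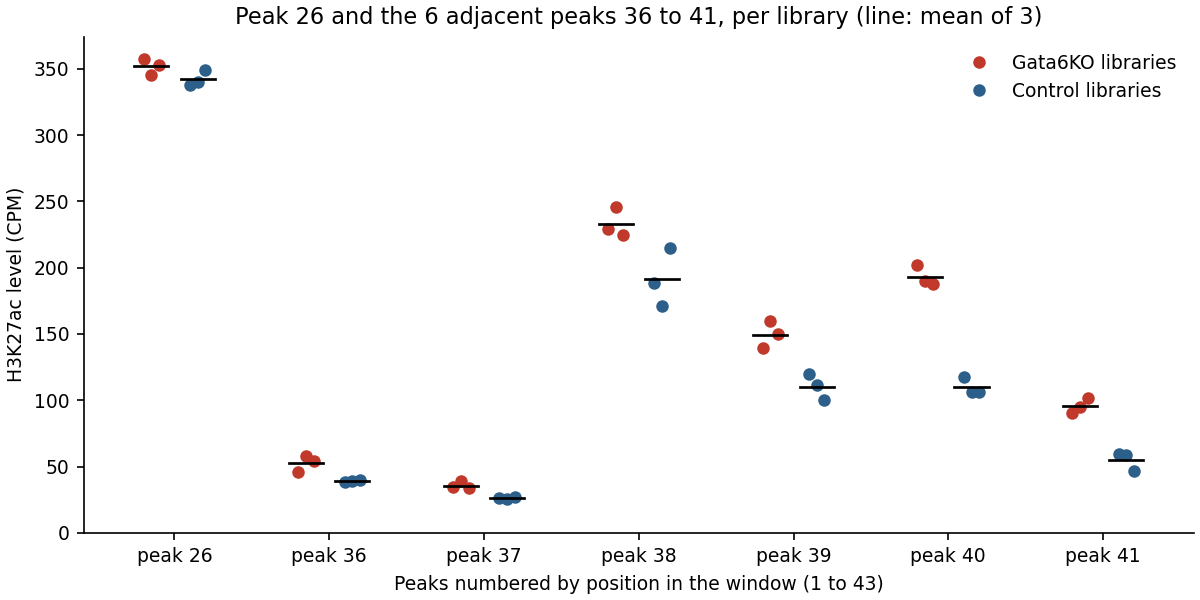
Level (CPM) in each library, Gata6KO left and Control right, of peak 26, which has the highest level in the Msi2 window, and of the 6 adjacent peaks 36 to 41 that were called higher. Black lines are means of 3 libraries. Peak 26 lies at 352 and 342 CPM, while peak 40 lies at 193 and 110 CPM.

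The peak with the highest level was not among the changed ones. Peak 26, from 88361569 to 88376916, held 358, 346 and 353 CPM in Gata6KO replicates 1 to 3, against 338, 340.0 and 349 CPM in Control replicates 1 to 3. The groups overlapped, and the log2 fold change was 0.04 ± 0.05 (SE). At 22.3 CPM per kb in Control libraries it was the densest peak of the window and lay at percentile 99.2 of all peaks. Peaks 26 and 38 together held 22.3% of the summed level of the window in Gata6KO and 24.6% in Control libraries.

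The unequal change could be read within single libraries, where scaling plays no part. The reads in peaks 40 and 41 together were 0.818, 0.825 and 0.819 times those in peak 26 in Gata6KO replicates 1 to 3, against 0.524, 0.486 and 0.439 times in Control replicates 1 to 3. The Gata6KO libraries agreed closely with each other, and each lay above every Control library. The means were 0.821 ± 0.00388 in Gata6KO and 0.483 ± 0.0430 in Control libraries (SD, n = 3 each). These 3 peaks were chosen after their values had been seen.

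Called peaks were also found in the interior of the window. Peak 31, from 88459953 to 88466928, is the first after the long interval without peaks. It held 98.2, 92.5 and 75.7 CPM in Gata6KO replicates 1 to 3, against 58.8, 72.8 and 67.0 CPM in Control replicates 1 to 3, with a log2 fold change of 0.42 ± 0.10 (SE). Gata6KO replicate 3 was the lowest of its group and lay just above the highest Control library.

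Peak 22, from 88324337 to 88330213, had the same log2 fold change, 0.42 ± 0.11 (SE), with 83.7 ± 4.65 CPM in Gata6KO and 62.5 ± 3.88 CPM in Control libraries. The groups did not overlap. Its neighbour, peak 21, from 88315732 to 88317645, was called higher at 0.54 ± 0.19 (SE), but its groups overlapped, at 20.8 to 28.7 CPM in Gata6KO and 14.0 to 21.6 CPM in Control libraries. Peaks 28 and 29, also neighbours, held 61.9 ± 4.83 and 51.1 ± 5.11 CPM in Gata6KO and 49.9 ± 2.62 and 38.4 ± 3.86 CPM in Control libraries, and neither had overlapping groups.

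Peak 1, the first of the window, from 88166796 to 88169986, held 34.5, 30.1 and 25.3 CPM in Gata6KO replicates 1 to 3, against 24.0, 18.3 and 17.6 CPM in Control replicates 1 to 3. Its groups lay apart, and its log2 fold change was 0.59 ± 0.17 (SE). Peak 8 was called higher at 0.52 ± 0.16 (SE), with 36.4 ± 5.32 CPM in Gata6KO and 25.4 ± 1.97 CPM in Control libraries and no overlap. Peaks 4, 17 and 19 were called at 0.33, 0.44 and 0.41 although 1 or more libraries overlapped. In all, 12 of the 16 called peaks had groups that lay apart and 4 did not, and 6 peaks lay apart without being called. Over all peaks, 11.6% were called higher and 17.5% had all Gata6KO libraries above all Control libraries. How often both held over all peaks was not counted, so this split is not read as a trait of the window.

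Peaks 3, 16 and 18 were weak and were not called. Their log2 fold changes were 0.49, 0.52 and 0.55, with standard errors of 0.26, 0.24 and 0.31, at Control levels of 12.4, 13.9 and 9.87 CPM. These values depended on the scaling: with offsets that follow the level of a peak (trended offsets) they were 0.28, 0.40 and 0.14. The Gata6KO libraries of each peak lay above its Control libraries. Peak 18 held 70 to 108 reads in a Gata6KO library and 50 to 78 in a Control library.

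Some well-covered peaks showed little difference. Peak 7, from 88212164 to 88222734, held 122 ± 8.26 CPM in Gata6KO and 109 ± 10.4 CPM in Control libraries, at a log2 fold change of 0.16 ± 0.08 (SE). Peak 35 held 84.3 ± 6.45 CPM in Gata6KO and 74.8 ± 2.73 CPM in Control libraries and lay at 0.17 ± 0.10 (SE). Neither was called, although the Gata6KO libraries of peak 35 all lay above its Control libraries.

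The 4 peaks with a fold change below 0 were peaks 2, 5, 13 and 32, of which only peak 13 kept this sign under all 16 alternatives. Peak 32, from 88473451 to 88477213, held 80.8, 77.3 and 75.04 CPM in Gata6KO replicates 1 to 3, against 95.7, 77.1 and 75.04 CPM in Control replicates 1 to 3. Its groups overlapped, although Control replicate 1 lay above all Gata6KO libraries. Its log2 fold change was -0.09 ± 0.10 (SE), and 0.03 without Control replicate 1. At 22.0 CPM per kb in Control libraries it came next to peak 26 in density. Peak 13 had the lowest value of the window, -0.39 ± 0.23 (SE), at 15.2 ± 2.59 CPM in Gata6KO and 19.8 ± 4.02 CPM in Control libraries.

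Fold change and level were only loosely related among the 43 peaks. Spearman's rho of log2 fold change with mean level was -0.143 over the 43 peaks and -0.164 over all 22731, and with width -0.105 and -0.139. With the Control level, which itself enters the fold change, rho was -0.254 over the 43 peaks and -0.346 over all 22731. These values are descriptions across peaks that share their libraries. Of the 16 called peaks, 10 had a Control level at or above the median of all peaks, and 3 had a ratio of at least 1.5.

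The surroundings of the window were sparser and changed unevenly. In the 500 kb before it there were 8 peaks, which held 288 ± 22.9 CPM in Gata6KO and 231 ± 20.01 CPM in Control libraries (SD, n = 3 each). The 3 Gata6KO sums lay above the 3 Control sums, and the difference of 24.3% was no smaller than that of the Msi2 window itself. Of these 8 peaks, 6 had a fold change above 0. The 1 called peak among them, from 87964131 to 87971433, was higher, at 123 ± 9.07 CPM in Gata6KO and 89.9 ± 8.52 CPM in Control libraries. The peak nearest to the window on this side, from 88017127 to 88019132, held 23.6 ± 4.18 CPM in Gata6KO and 19.9 ± 2.97 CPM in Control libraries and was not called.

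In the 500 kb after the window there were 6 peaks, which held 390 ± 5.15 CPM in Gata6KO and 472 ± 8.60 CPM in Control libraries (SD, n = 3 each), a difference of -17.4%. The 2 called ones were lower. The peak nearest to the window on this side, from 88692545 to 88713564, held 256 ± 3.71 CPM in Gata6KO and 336 ± 13.9 CPM in Control libraries, a log2 fold change of -0.40 ± 0.06 (SE). The peak that follows it, from 88724103 to 88726508, held 15.6 ± 2.95 CPM in Gata6KO and 23.5 ± 3.56 CPM in Control libraries. Both had groups that lay apart, in the direction opposite to peaks 36 to 41. These peaks outside the window were named after their values had been seen.

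The peaks elsewhere whose levels followed the summed Msi2 level most closely over the 6 libraries lay on chromosomes 18, 2 and 13. They were sought by Pearson's r of log2 CPM among 11339 peaks whose mean level was at or above the median. The first, from 61111081 to 61115599 on chromosome 18, had r = 0.999, with 116 ± 3.35 CPM in Gata6KO and 78.1 ± 2.69 CPM in Control libraries. The others, from 170252147 to 170255963 on chromosome 2 and from 29253693 to 29256525 on chromosome 13, had r = 0.998 and 0.996 and ratios of 1.59 and 1.86. With 6 libraries in 2 groups, r near 1 mostly restates that the groups lay apart.

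No peak of the table lay in the Msi1 window, so neither a level nor a change at Msi1 is given. The flanking peaks ended at 115768508 and began at 115962926 on chromosome 5, 194 kb apart, and carry consecutive identifiers. Intervals at least as wide made up 130 of the 1862 on chromosome 5, or 6.98%, and the median interval was 6.98 kb. Why the authors' shared peak set has no row there is not given in the sources used here, and the missing row does not show that acetylation was absent.

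Chromosome 5 as a whole was lower in Gata6KO libraries, with a median log2 fold change of -0.26 over its 1863 peaks, so the neighbours of Msi1 are set against that value. On this chromosome 33.8% of peaks were called lower and 4.46% higher. In the 500 kb before the Msi1 window, 22 peaks had a median of -0.17, with 5 called lower and 1 higher, and summed to 826 ± 27.7 CPM in Gata6KO and 953 ± 31.3 CPM in Control libraries. In the 500 kb after it, 32 peaks had a median of -0.40, with 22 called lower and 0 higher, and summed to 1790 ± 22.5 CPM in Gata6KO and 2373 ± 48.6 CPM in Control libraries (SD, n = 3 each). The peaks before the window thus had a median above that of the chromosome, and the peaks after it a median below.

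The peaks closest to the Msi1 window lay between the quartiles of all chromosome 5 peaks, which were -0.43 and -0.06 on the log2 scale. The last peak before it, from 115765903 to 115768508, held 29.9, 23.6 and 30.1 CPM in Gata6KO replicates 1 to 3, against 36.2, 27.3 and 30.4 CPM in Control replicates 1 to 3, a log2 fold change of -0.16 ± 0.16 (SE). The first peak after it, from 115962926 to 115965747, held 25.9, 33.4 and 28.5 CPM in Gata6KO replicates 1 to 3, against 36.2, 44.8 and 32.1 CPM in Control replicates 1 to 3, a log2 fold change of -0.36 ± 0.15 (SE). Their groups overlapped and neither peak was called. They differed from the chromosome 5 median by 0.09 and -0.10 on the log2 scale, less than their standard errors. Of the 4 peaks that follow the window, the third, from 115978635 to 115986377, was the exception, with 122 ± 11.9 CPM in Gata6KO and 175 ± 16.5 CPM in Control libraries, a difference of -0.27 from the chromosome median, and it was still called lower when the shift had been removed.

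**Figure D4:**
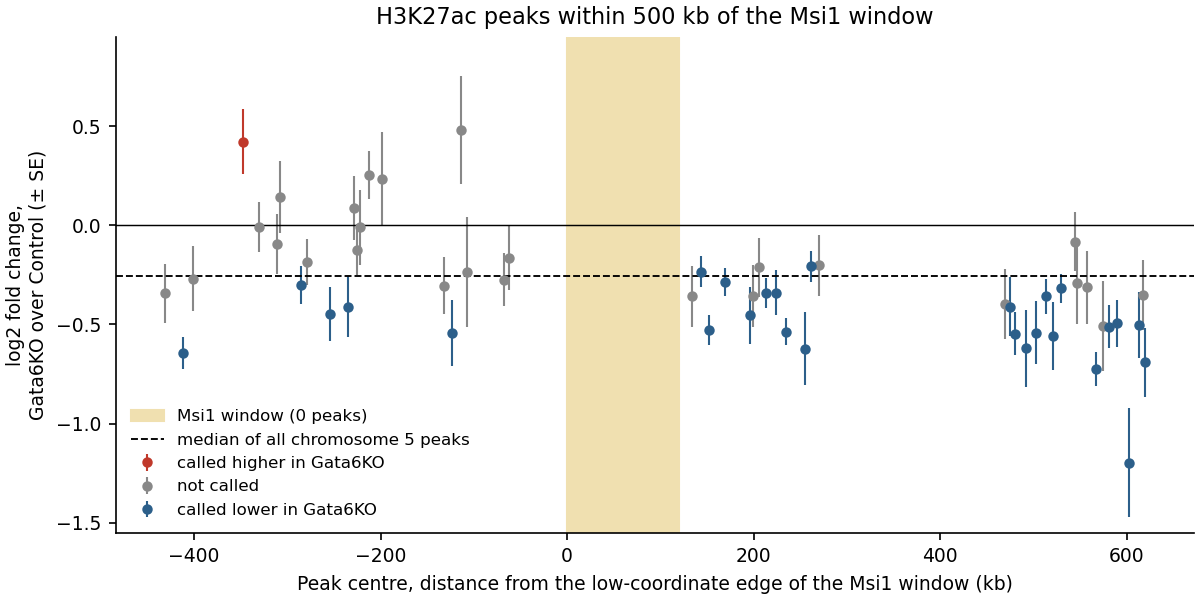
Log2 fold change ± SE of the H3K27ac peaks within 500 kb of the Msi1 window, by distance of the peak centre from its low-coordinate edge (kb). The shaded window holds 0 peaks, the dashed line is the chromosome 5 median of -0.26, and the 32 peaks to the right all lie below 0.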

How the data were processed

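Counts per peak were deposited by the authors as whole, unnormalized read counts for 6 H3K27ac libraries over 1 shared peak set. Per the submitters' processing notes, the build was mm9 and the tools included SEACR, Bowtie, bedtools, Picard and SAMtools. How peaks were combined and reads counted is not given in the sources used here. Reads in peaks numbered 5495414 to 6196455 in Gata6KO and 5141856 to 7026388 in Control libraries. Between 82.8% and 88.9% of the counts in a library were even, so mates may have been counted separately.

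All 22731 peaks were fitted together with edgeR 4.0.16 in R 4.3.3 (filterByExpr, TMM factors, quasi-likelihood, group as the only term, two-sided, Benjamini-Hochberg adjustment, calls at an adjusted p under 0.05). Levels are TMM-scaled CPM, with reads in peaks as the library size, which hides any change common to the whole table. Standard errors follow from the F statistic of the quasi-likelihood test. The fit was tested on simulated data. DESeq2 1.42.0 was an alternative. Other scalings, filters, a replicate block and leaving out each library were tried as well.

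The members, bins and lists were chosen with earlier results of these data known. The rule for named peaks took, of the Msi2 window, the 10 with the highest mean level, the 10 with the largest absolute log2 fold change, and the first and last, 18 in all. Other peaks named in the text were chosen after their values had been seen. Deviations of same-numbered libraries from their group means correlated at 0.00591 to 0.0671, so the numbers were not taken as pairs.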

Additional observations from a re-analysis of the deposited data

How the results depend on the processing

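The log2 ratio of the summed Msi2 level, 0.27, stayed between 0.25 and 0.30 under DESeq2, the other scalings, both filters, halved counts and the replicate block, and between 0.26 and 0.29 when 1 library was left out. The number of Msi2 peaks called higher was 14 to 16 under these settings (16 with the replicate block), 9 at an adjusted p under 0.01, and 8 to 13 with 1 library left out, and 0 were called lower in each. Of the 16 called peaks, 6 were called under all 16 alternatives and 10 lost the call under at least 1, with no change of sign. Of the 27 uncalled peaks, 10 changed sign at least once and 2 were called at least once. Of 288 values of the 18 named peaks under alternatives, 285 moved by less than the spread between libraries. The others, at peaks 18, 26 and 43 with trended offsets, were 0.14, 0.11 and 0.06. Over all peaks, 1478 were called lower at an adjusted p under 0.01, in place of 2320, since fewer can pass a stricter threshold. With 1 library left out, 2220 to 2367 were called higher and 1741 to 1996 lower. The replicate block gave 2704 higher and 2409 lower over all peaks. Not every library deviated most like its own number, and the block changed no call of the Msi2 window. No alternative could be computed for the Msi1 window, which held 0 peaks. At this depth the standard error of the log2 fold change was 0.31 at peak 18, with few reads, and 0.08 at peak 40.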
